A study of Mus musculus with 3 samples.

Results

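Mt1, Mt2 and Mt3 are 3 metallothionein genes of the mouse, and their rows were taken by symbol from a table of 28676 genes counted in single cells of the medial vestibular nucleus (MVN), a brainstem nucleus that receives input from the balance organ of the inner ear. The study asked how the cells of this nucleus respond when the labyrinth of 1 ear is destroyed (unilateral labyrinthectomy, UL). ULI is the MVN on the operated (ipsilateral) side and ULC the MVN on the other (contralateral) side of the same UL mice, and control is the MVN of mice whose bulla was opened without destruction of the labyrinth. All mice were C57BL/6J, were operated at postnatal day 20 and were taken 1 day later. ULI and ULC each pooled tissue of 11 UL mice and control pooled tissue of 10 mice, so that each group is 1 library and no difference below has a replicate check. In the records, all 3 samples carry the same treatment entry, labyrinthectomy, so the control group was read from its source name and from the study's text.

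Metallothioneins are small proteins, very rich in cysteine, that bind zinc and copper ions through their sulphur atoms. Mt1 and Mt2 are made in most tissues, and in the brain chiefly in astrocytes and ependymal cells. Both are switched on by zinc through the transcription factor MTF-1, by glucocorticoids and by oxidative and injury stress. Mt3, also known as growth inhibitory factor, is found mainly in the central nervous system, where astrocytes and some neurons express it, and it responds little to metals.

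The 3 genes lie close together on the plus strand of chromosome 8 (mm10, GENCODE annotation), each with 3 exons. Mt3 (ENSMUSG00000031760.9) spans chr8:94152607-94154146, Mt2 (ENSMUSG00000031762.7) spans chr8:94172664-94173568 and Mt1 (ENSMUSG00000031765.8) spans chr8:94179082-94180327. A gap of 18517 bases separates Mt3 from Mt2, and a gap of 5513 bases separates Mt2 from Mt1. The coding sequences are shown because the members are close copies of each other and the counts below depend on telling them apart. They are taken from the annotated transcripts on mm10, without the stop codon, and capitals mark the in-frame cysteine codons (TGC or TGT).
Mt1: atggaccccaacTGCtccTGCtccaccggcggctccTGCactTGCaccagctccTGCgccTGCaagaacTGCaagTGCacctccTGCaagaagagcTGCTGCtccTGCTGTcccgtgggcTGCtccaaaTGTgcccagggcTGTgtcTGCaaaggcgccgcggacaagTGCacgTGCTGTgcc
Mt2: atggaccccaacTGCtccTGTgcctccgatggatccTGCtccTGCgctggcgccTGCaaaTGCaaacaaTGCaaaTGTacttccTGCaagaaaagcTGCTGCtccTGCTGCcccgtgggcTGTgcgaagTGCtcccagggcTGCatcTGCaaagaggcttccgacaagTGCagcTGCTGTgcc
Mt3: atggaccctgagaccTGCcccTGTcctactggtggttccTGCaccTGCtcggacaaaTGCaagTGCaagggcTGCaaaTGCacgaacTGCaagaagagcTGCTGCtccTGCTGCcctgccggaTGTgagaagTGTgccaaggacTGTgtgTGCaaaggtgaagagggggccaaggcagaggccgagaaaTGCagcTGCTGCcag
Each coding sequence holds 20 cysteine codons, in 61 codons of Mt1, in 61 codons of Mt2 and in 68 codons of Mt3. Mt1 and Mt2 were identical at 79.2% of 183 aligned coding bases, Mt2 and Mt3 at 74.9%, and Mt1 and Mt3 at 72.1%. The longest run of bases shared by any pair of transcripts was 27 (Mt1 and Mt3), and within the last 150 bases, near the end that is tagged in 3′ libraries, it was 10. Treatment of reads that match more than 1 member is not given in the sources used here. An antisense gene, Gm45774, overlaps Mt2 over 749 bases, and it had 4 UMIs in the whole table.

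In all, the table held 9493 UMIs (unique molecular identifiers, counts of tagged RNA molecules) of Mt1, 1161 of Mt2 and 5513 of Mt3. The libraries differed in depth, with a median of 2100 UMIs per cell in ULI, 931 in ULC and 3177 in control. Cells with at least 200 genes were kept, which were 4813 of 5062 barcodes in ULI, 4544 of 4998 in ULC and 4607 of 4816 in control. They were clustered without the 3 members, and clusters were given names of cell classes from marker genes. Barcodes are numbered and not written as bases, so sharing of barcodes between libraries could not be read, but 0 barcodes held identical counts in 2 libraries. The ULC library stood apart: 24.3% of its cells were choroid plexus epithelium-like, against 5.49% in ULI and 0.586% in control, and its precursor-like, mature oligodendrocyte-like and microglia-like cells lay mainly in clusters that held few cells of the other libraries. Tissue labelled as a nucleus of neurons gave few neuron-like cells, 112 in ULI, 90 in ULC and 8 in control.

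Levels are given as CPM, the summed UMIs of a gene in a class scaled to 1000000 UMIs of that class, with an exact 95% Poisson interval. These intervals, and the binomial intervals of shares and ratios, cover counting error only and not the variation between mice or between libraries. Dividing by transcript length would move Mt3 against Mt1 by 0.03 and Mt3 against Mt2 by -0.07 on the log2 scale, so levels of the members were set side by side without that step. Over all kept cells, Mt1 stood at 142 CPM in ULI, 168 CPM in ULC and 181 CPM in control. Mt2 stood at 20.7 CPM in ULI, 11.8 CPM in ULC and 24.0 CPM in control. Mt3 stood at 18.7 CPM in ULI, 355 CPM in ULC and 25.6 CPM in control, so that ULC held far more Mt3 than either other library.

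The cells that carried these molecules differed between the members and between the libraries. Astrocyte-like cells held 31.6% of the Mt1 UMIs of ULI, 17.2% of those of ULC and 34% of those of control. Of the Mt2 UMIs, astrocyte-like cells held 46.6% in ULI, 32.4% in ULC and 55% in control. Plexus-like cells held 57.7% of the Mt3 UMIs in ULI, 72.7% in ULC and 5.68% in control, where ependymal-like cells held 69%.

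**Figure D1:**
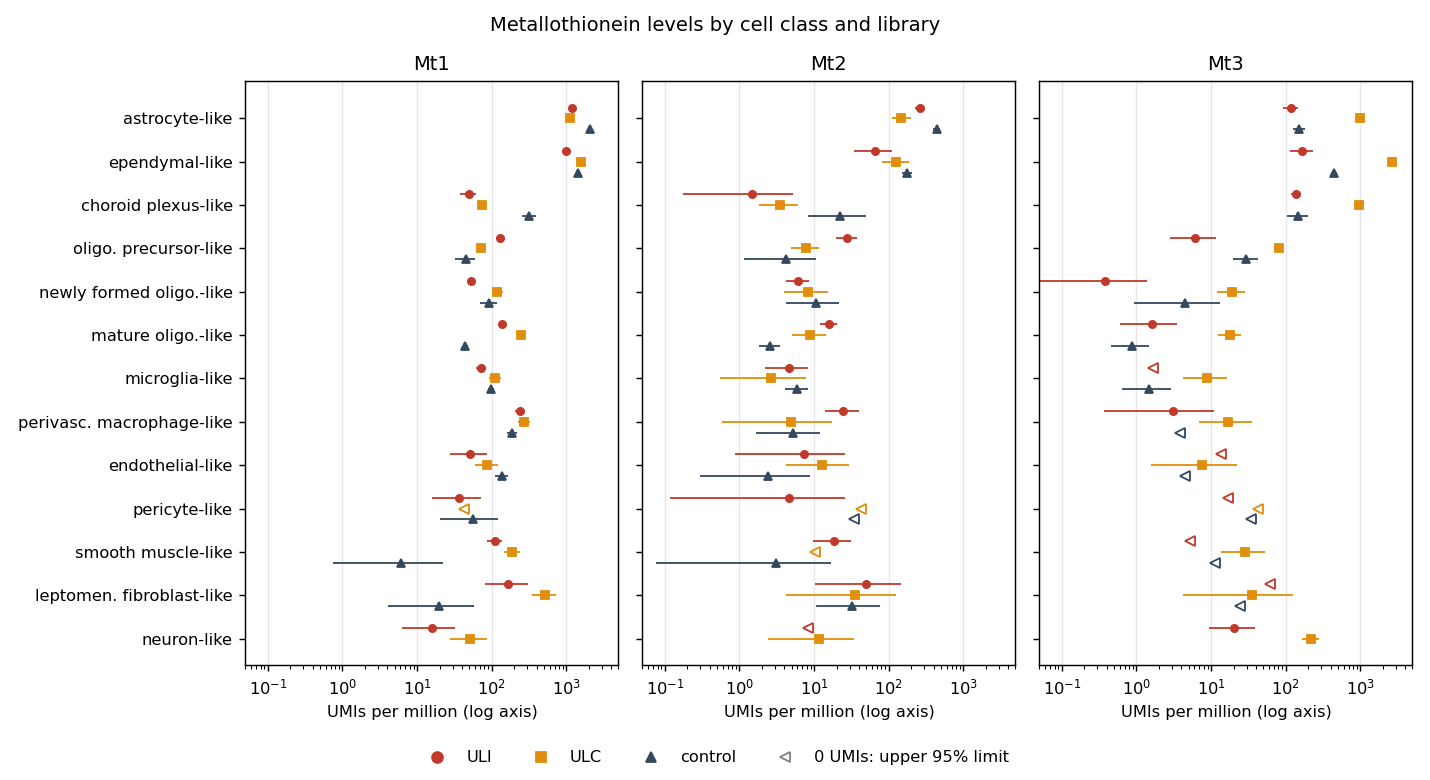
CPM of Mt1, Mt2 and Mt3 (log axis) in each cell class, with ULI, ULC and control as separate points and exact 95% Poisson intervals as bars, and open triangles at the upper limit where a class had 0 UMIs. Mt1 and Mt2 were highest in astrocyte-like cells in control, and Mt3 was highest in ependymal-like cells, at 2660 CPM in ULC and 445 CPM in control.

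The order of the classes by Mt1 was led by glia of the astrocyte and ependymal lineages. In control, Mt1 was highest in astrocyte-like cells (2064 CPM, 1966 to 2166), followed by ependymal-like cells (1414 CPM, 1344 to 1488), plexus-like cells (316.4 CPM, 252.4 to 391.7) and perivascular macrophage-like cells (187 CPM, 160 to 216). Endothelial-like cells at 136 CPM (112 to 164) overlapped the macrophage-like interval, microglia-like cells stood at 97.9 CPM, and the interval of newly formed oligodendrocyte-like cells (92.4 CPM, 70.7 to 119) overlapped that of microglia-like cells. Precursor-like cells (45.1 CPM) and mature oligodendrocyte-like cells (44.6 CPM) could not be ordered. In ULC the order of the leading pair was the other one, with 1556 CPM (1387 to 1740) in ependymal-like and 1112 CPM (1000 to 1233) in astrocyte-like cells, and in ULI the intervals of astrocyte-like cells (1209 CPM, 1125 to 1297) and ependymal-like cells (998.6 CPM, 864.6 to 1147) overlapped.

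Mt2 stood lower than Mt1 and, in control, was likewise highest in astrocyte-like and then ependymal-like cells. There it stood at 443 CPM in astrocyte-like and 176 CPM in ependymal-like cells, with intervals that did not overlap, then at 32.7 CPM in leptomeningeal fibroblast-like cells (5 UMIs) and 22.6 CPM in plexus-like cells (6 UMIs). Every other named class of at least 20 cells in control stood at 10.6 CPM or lower. Mt1 exceeded Mt2 in every class with UMIs of either, in each library, except leptomeningeal fibroblast-like cells of control, which had 3 UMIs of Mt1 and 5 of Mt2. The astrocyte-like cells held 4.65 UMIs of Mt1 per UMI of Mt2 in ULI (interval 3.93 to 5.53), 7.5 in ULC (5.54 to 10.4) and 4.66 in control (4.15 to 5.24), so that ULI and control matched to within their intervals and ULC lay above both.

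Mt3 had another order. In control, ependymal-like cells led with 445 CPM (406 to 487), and astrocyte-like cells (152 CPM, 126 to 182) and plexus-like cells (147 CPM, 105 to 201) could not be ordered. In ULC, ependymal-like cells (2660 CPM, 2438 to 2898) again stood above astrocyte-like cells (976 CPM, 871 to 1090) and plexus-like cells (948 CPM, 916 to 981), which again could not be ordered. Neuron-like cells of ULC came next with 217 CPM (163 to 282) and precursor-like cells with 80.4 CPM (70.3 to 91.5). In ULI, the intervals of ependymal-like (166 CPM, 114 to 233), plexus-like (137 CPM, 118 to 158) and astrocyte-like cells (118 CPM, 93.2 to 148) all overlapped. Microglia-like cells had 0 of 909 cells with Mt3 in ULI, where 3 UMIs would be 1.37 CPM, and stood at 8.88 CPM in ULC and 1.49 CPM in control.

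In astrocyte-like cells, Mt1 and Mt2 were lower in both libraries of the UL mice than in control, and Mt3 was higher in ULC and not distinguishable in ULI. There were 335 such cells in ULI, 211 in ULC and 303 in control, all of 1 cluster led by Slc6a11, Ntsr2 and Gjb6. Mt1 stood at 1209 CPM in ULI, 1112 CPM in ULC and 2064 CPM in control, and the log2 ratio to control was -0.77 (-0.90 to -0.65) in ULI and -0.89 (-1.06 to -0.73) in ULC. Mt2 stood at 259.8 CPM in ULI, 148 CPM in ULC and 443 CPM in control, with log2 ratios of -0.77 (-1.04 to -0.50) in ULI and -1.58 (-2.04 to -1.14) in ULC. Mt3 stood at 118 CPM in ULI, 976 CPM in ULC and 152 CPM in control, with log2 ratios of -0.36 (-0.80 to 0.06) in ULI and 2.68 (2.38 to 2.99) in ULC, which is 6.41-fold higher in ULC.

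Set against the other genes of the same cells, 0 of 3 members were at least 2-fold apart between ULI and control, where 4.33% of the 4315 genes with at least 50 UMIs were at least 2-fold higher and 7.76% at least 2-fold lower. Between ULC and control, Mt3 was past 2-fold higher, as were 5.12% of 3518 genes, and Mt2 was past 2-fold lower, as were 13.1%. A direct comparison of ULI with ULC gave log2 ratios of 0.12 (-0.06 to 0.31) for Mt1, 0.81 (0.34 to 1.30) for Mt2 and -3.04 (-3.43 to -2.68) for Mt3, and here 6.64% of 3043 genes were at least 2-fold lower and 10.8% at least 2-fold higher in ULI. Mt1 thus differed little between the ULI and ULC astrocyte-like cells, while Mt3 differed strongly. The comparisons to control share the control cells and are not independent of each other.

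The shares of astrocyte-like cells with at least 1 UMI were 51.3% in ULI, 51.7% in ULC and 75.2% in control for Mt1, at median depths of 1475 UMIs in ULI, 1248 in ULC and 2168 in control. After every cell was thinned to 500 UMIs, which left out 5 cells of ULI, 11 of ULC and 1 of control, they were 27% in ULI, 30% in ULC and 50.3% in control. For Mt2 the shares were 21.2% in ULI, 12.8% in ULC and 39.9% in control at the cells' own depths, and after thinning 8.48% in ULI, 6% in ULC and 15.6% in control. For Mt3 the shares were 9.55% in ULI, 41.7% in ULC and 15.2% in control at the cells' own depths, and after thinning 5.15% in ULI, 30% in ULC and 3.64% in control. Microglia-like cells, which should lack Mt3, had it in 0% of thinned cells in ULI, 0.659% in ULC and 0.117% in control, at median depths of 2236 in ULI, 2358 in ULC and 3068.5 UMIs in control. The Mt3 of ULC was spread over many astrocyte-like cells, and the cell with the most Mt3 UMIs held 15.8% of them in ULI, 4.43% in ULC and 12.3% in control.

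The share of mitochondrial UMIs moved with the library in these cells, at a median of 23.9% in ULI, 25.4% in ULC and 17.5% in control. In the cells of at most 20% mitochondrial UMIs, 119 in ULI, 70 in ULC and 170 in control, the log2 ratio of Mt1 between ULI and control was -0.46 instead of -0.77, and that of Mt2 between ULC and control was -2.10 instead of -1.58. Both kept their direction. The part of cell quality in these ratios was not tested.

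**Figure D2:**
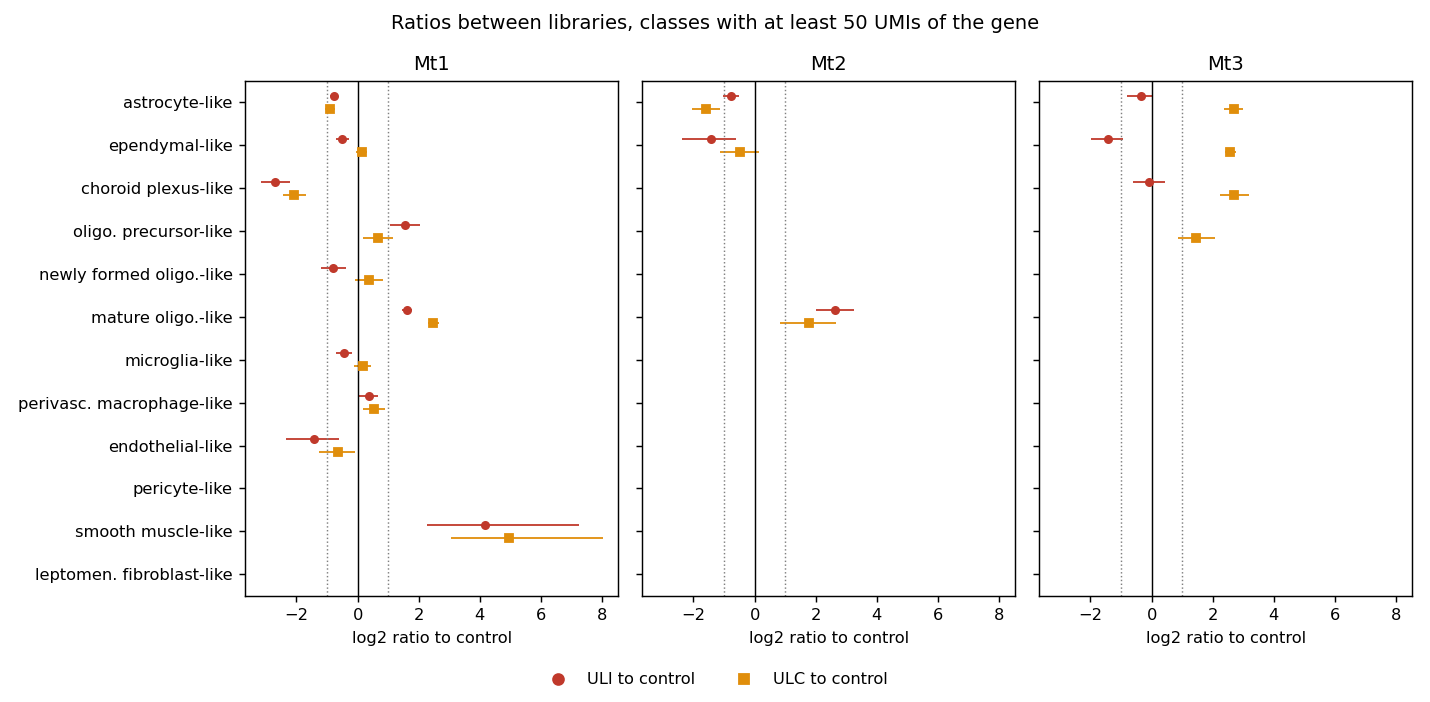
Log2 ratios of Mt1, Mt2 and Mt3 by cell class for ULI to control and ULC to control, for classes with at least 50 UMIs of the gene, with exact 95% binomial intervals as bars and dotted lines at 2-fold. Mt3 of ULC lay at 1.45 to 2.69 above control in the 4 classes with at least 50 UMIs in ULC and control together. Mt1 ran from -2.69 to 4.17 for ULI and from -2.07 to 4.96 for ULC, and both upper ends were smooth muscle-like cells, with 2 Mt1 UMIs in control.

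In ependymal-like cells, the ciliated cells that line the ventricles (61 in ULI, 55 in ULC and 156 in control), the members did not move together. Mt1 stood at 998.6 CPM in ULI, 1556 CPM in ULC and 1414 CPM in control, with log2 ratios of -0.50 (-0.72 to -0.29) in ULI and 0.14 (-0.04 to 0.32) in ULC. Mt2 stood at 65.2 CPM in ULI, 127 CPM in ULC and 176 CPM in control, and only the ULI ratio of -1.43 (-2.36 to -0.62) had an interval clear of 0. Mt3 stood at 166 CPM in ULI, 2660 CPM in ULC and 445 CPM in control, with log2 ratios of -1.43 (-1.98 to -0.92) in ULI and 2.58 (2.40 to 2.76) in ULC. Mt2 and Mt3 were past 2-fold lower in ULI, as were 12.5% of 4974 genes, and Mt3 was past 2-fold higher in ULC, as were 7.95% of 4993 genes.

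Some ependymal-like barcodes carried much Ttr (transthyretin, the leading transcript of plexus epithelium): 2 cells of ULI, 12 of ULC and 25 of control had over 2% of their UMIs in it. Without them Mt3 stood at 175 CPM in ULI, 3113 CPM in ULC and 552 CPM in control, and its log2 ratio to control was -1.66 in ULI and 2.50 in ULC. In control, 1 cell held 19.6% of the Mt3 UMIs of the ependymal-like cells.

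Plexus-like cells numbered 264 in ULI, 1102 in ULC and 27 in control, and those of control lay mainly in another cluster than those of ULI and ULC. Mt1 stood at 49.2 CPM in ULI, 75.2 CPM in ULC and 316 CPM in control, with log2 ratios of -2.69 (-3.17 to -2.21) in ULI and -2.07 (-2.43 to -1.70) in ULC. Mt2 was near its limit, with 2 UMIs in ULI, 12 in ULC and 6 in control. Mt3 stood at 137 CPM in ULI, 948 CPM in ULC and 147 CPM in control, with log2 ratios of -0.10 (-0.60 to 0.44) in ULI and 2.69 (2.24 to 3.18) in ULC. Mt1 was past 2-fold lower in both libraries, as were 7.99% of 4170 genes in ULI and 8.79% of 7141 genes in ULC, and Mt3 was past 2-fold higher in ULC, as were 19.6% of the genes. Mt3 rested on few cells here, since 1 cell held 48.7% of its UMIs in control and 1 cell 34.2% in ULI. Without the top cell of each library Mt3 stood at 91.4 CPM in ULI, 939.5 CPM in ULC and 81.4 CPM in control, and the log2 ratio of ULC to control was 3.53.

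Mature oligodendrocyte-like cells, the cells that make myelin, showed Mt1 and Mt2 in the opposite direction to astrocyte-like cells. In these cells (905 in ULI, 713 in ULC and 1397 in control), Mt1 stood at 136 CPM in ULI, 248 CPM in ULC and 44.6 CPM in control, with log2 ratios of 1.61 (1.44 to 1.78) in ULI and 2.48 (2.30 to 2.65) in ULC. Mt2 stood at 16.0 CPM in ULI, 8.83 CPM in ULC and 2.58 CPM in control, with log2 ratios of 2.63 (2.02 to 3.25) in ULI and 1.77 (0.83 to 2.65) in ULC. Both genes were past 2-fold higher in both libraries, beside 7.19% of 10024 genes for ULI and 14.7% of 9909 genes for ULC. Mt3 stayed low at 1.63 CPM in ULI, 18.2 CPM in ULC and 0.861 CPM in control. The median depth of these cells was 843 UMIs in ULI, 754 in ULC and 4136 in control. Barcodes with under 200 genes, not kept as cells, held Mt1 at 138 CPM in ULI, 110 CPM in ULC and 100 CPM in control.

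The mature cells of each library lay mainly in different clusters, numbered 11 for ULI, 9 for ULC and 0 for control, so Mt1 was also compared within clusters. Cluster 9 was named by its summed markers, with 0 of them among its 10 leading genes. In cluster 0, Mt1 stood at 63.1 CPM in ULI, 99.6 CPM in ULC and 23.4 CPM in control. Cluster 9 gave 278 CPM in ULI, 251 CPM in ULC and 38.5 CPM in control, and cluster 10 gave 109 CPM in ULI and 32.6 CPM in control. Cluster 10 held 388 of the 673 Mt1 UMIs of the class in control, and only 2 cells of ULC. Cluster 11 was the exception for ULI, with 159 CPM in ULI (442 cells) and 184 CPM in control (99 cells), a log2 ratio of -0.21 (-0.46 to 0.04). Its 24 cells of ULC stood at 523 CPM from 14 UMIs. Mt1 was thus higher than control in 3 of the 4 clusters for ULI and in 3 of 3 for ULC.

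Precursor-like cells, the dividing cells of the lineage, numbered 469 in ULI, 427 in ULC and 243 in control. Mt1 stood at 131 CPM in ULI, 71.2 CPM in ULC and 45.1 CPM in control, with log2 ratios of 1.54 (1.05 to 2.05) in ULI and 0.66 (0.18 to 1.17) in ULC. Mt3 stood at 6.13 CPM in ULI, 80.4 CPM in ULC and 29.3 CPM in control, with log2 ratios of -2.26 (-3.53 to -1.13, 9 against 28 UMIs) in ULI and 1.45 (0.88 to 2.08) in ULC. Mt1 was past 2-fold higher in ULI, as were 2.79% of 7539 genes, and Mt3 in ULC, as were 14% of 8927 genes. Each reached the UMI count needed for this call through only the library where it was high. Mt1 had 192 UMIs in ULI and 43 in control, and Mt3 had 227 in ULC and 28 in control. Cluster 18, which held 82% of the ULC cells, had nearly no cells of the other libraries. Within cluster 6, Mt1 stood at 131 CPM in ULI, 157 CPM in ULC and 44.6 CPM in control. There the log2 ratio of Mt3 between ULC and control was 1.57 (0.30 to 2.69), from 9 against 28 UMIs.

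Newly formed oligodendrocyte-like cells did not show the pattern of the mature ones. Mt1 stood at 53.0 CPM in ULI, 119.5 CPM in ULC and 92.4 CPM in control, with log2 ratios of -0.80 (-1.21 to -0.38) in ULI and 0.37 (-0.07 to 0.83) in ULC. The cells lay mainly in cluster 5 in ULC (61.3%) and in cluster 14 in ULI (48.3%) and control (59.7%), and the class ratios held within clusters only in part. For ULI to control, the log2 ratio of Mt1 was -0.58 (-1.07 to -0.06) in cluster 13, the direction of the class. In cluster 14 it was 0.15 (-0.70 to 1.14), with 12 UMIs in control. For ULC to control it was -0.21 (-0.71 to 0.31) in cluster 13, the other direction than in the class. The control side of cluster 13 was 45 UMIs in 21 cells. Finer clustering (resolution 2.0) gave -1.09 for ULC to control. Mt2 had at most 32 UMIs in a library of this class, and Mt3 had 2 UMIs in ULI, 23 in ULC and 3 in control.

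Microglia-like and macrophage-like cells, the immune cells of the tissue, differed by less than 2-fold in Mt1. Microglia-like cells stood at 72.6 CPM in ULI, 110 CPM in ULC and 97.9 CPM in control, a log2 ratio of -0.43 (-0.70 to -0.17) in ULI and 0.17 (-0.12 to 0.45) in ULC. They lay mainly in cluster 8 in ULI (led by Lpl and the inflammatory genes Cxcl10 and Tnf), in cluster 15 in ULC and in cluster 2 in control. Within clusters the log2 ratio of Mt1 for ULI to control was -0.53 (-1.28 to 0.14) in cluster 2, -0.84 (-1.65 to -0.10) in cluster 3 and -0.66 (-1.06 to -0.26) in cluster 8, while the class ratio less the median of genes of like GC content was 0.04. For ULC to control, Mt1 in cluster 15 was at -0.61 (-1.32 to 0.17), the other direction than in the class, and Mt3 there stood at 9.46 CPM in ULC (10 UMIs) and 44.2 CPM in control (5 UMIs in 27 cells), a log2 ratio of -2.22 (-3.91 to -0.33). Perivascular macrophage-like cells stood at 239.8 CPM in ULI, 271 CPM in ULC and 187 CPM in control, with log2 ratios of 0.36 (0.04 to 0.68) in ULI and 0.54 (0.18 to 0.89) in ULC.

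Along the vessels, Mt1 went opposite ways in the inner lining and the muscle coat. Endothelial-like cells stood at 51.1 CPM in ULI, 87.0 CPM in ULC and 136 CPM in control, with log2 ratios of -1.42 (-2.33 to -0.61) in ULI, past 2-fold as were 10.9% of 4060 genes, and -0.65 (-1.25 to -0.08) in ULC. Vascular smooth muscle-like cells stood at 109.5 CPM in ULI, 189.6 CPM in ULC and 6.10 CPM in control, the last from 2 UMIs in 1 of 110 cells. The log2 ratios were 4.17 (2.27 to 7.24) in ULI and 4.96 (3.05 to 8.03) in ULC, past 2-fold as were 8.15% of 3805 genes in ULI and 11.4% of 2719 genes in ULC. Leptomeningeal fibroblast-like cells had 10 Mt1 UMIs in ULI, 29 in ULC and 3 in control, and pericyte-like cells had 8 in ULI, 0 in ULC and 6 in control.

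Neuron-like cells were too few in control to compare. In ULI their Mt3 stood at 20.3 CPM (9.27 to 38.5) and in ULC at 217 CPM (163 to 282), a log2 ratio of ULI to ULC of -3.42 (-4.62 to -2.39), past 2-fold lower in ULI as were 10.7% of 2946 genes. Mt3 reached the UMI count needed for this call through only ULC, where it was high, with 55 UMIs against 9 in ULI. Of the 9 Mt3 UMIs of ULI, 7 were in 1 cell. Mt1 in neuron-like cells stood at 15.8 CPM in ULI and 51.2 CPM in ULC.

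Across classes, the members showed different patterns. By the totals of each class, Mt3 was higher in ULC than in control in 11 of 12 classes compared and at 0 in both in the other, and it was lower in ULI than in ULC in 12 of 13. The share of all genes higher in as many classes was not counted. Some of the 11 had 0 UMIs in control and few in ULC: smooth muscle-like (10), perivascular macrophage-like (7), endothelial-like (3) and leptomeningeal fibroblast-like cells (2). In microglia-like cluster 15 the log2 ratio was -2.22, from 10 against 5 UMIs. Among the 4 classes with at least 50 Mt3 UMIs in ULC and control together, the log2 ratio of ULC to control ran from 1.45 to 2.69 with a median of 2.63. The 1.45 was that of precursor-like cells and depended on the clustering. It was 2.92 at resolution 0.5, 2.89 at resolution 2.0 and 2.22 with the members among the variable genes. Over 13 alternatives it ran from 1.08 to 2.92. Plexus-like cells (39 UMIs in control) and precursor-like cells (28 in control) reached 50 only through ULC, the library where Mt3 was high. Of 2575 genes with at least 50 UMIs in each of these 4 classes, 27 (1.05%) were at least 2-fold higher in ULC in all 4, and 99.5% had a lower smallest ratio than Mt3. Mt1 had no common direction: its CPM was lower in ULI than in control in 7 of 12 classes and higher in 5, and lower in ULC in 4 and higher in 8.

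The balance within the family can be read from the share of Mt3 in the summed UMIs of the 3 members, which does not depend on how libraries are scaled. In astrocyte-like cells Mt3 made up 7.45% of them in ULI (5.92 to 9.24), 43.6% in ULC (40.0 to 47.3) and 5.72% in control (4.77 to 6.79). In ependymal-like cells it made up 13.5% in ULI, 61.3% in ULC and 21.9% in control, and in plexus-like cells 73% in ULI, 92.3% in ULC and 30.2% in control. Precursor-like cells had 3.73% in ULI, 50.4% in ULC and 37.3% in control, and in mature oligodendrocyte-like cells Mt3 stayed below Mt1 and Mt2 together, at 1.06% in ULI, 6.61% in ULC and 1.79% in control. The share was highest in ULC in each of these classes, and the ULC interval lay above that of ULI in each, while in precursor-like cells it overlapped that of control. Within clusters that libraries shared, the order of ULC and control was not always this one. In precursor-like cluster 6 the share was 3.83% in ULI, 29% in ULC (14.2 to 48, 9 of 31 UMIs) and 37.8% in control (26.8 to 49.9), and in mature cluster 9 it was 5.74% in ULC (3.82 to 8.25) and 12% in control (2.55 to 31.2, 3 of 25 UMIs), with intervals that overlapped in both.

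**Figure D3:**
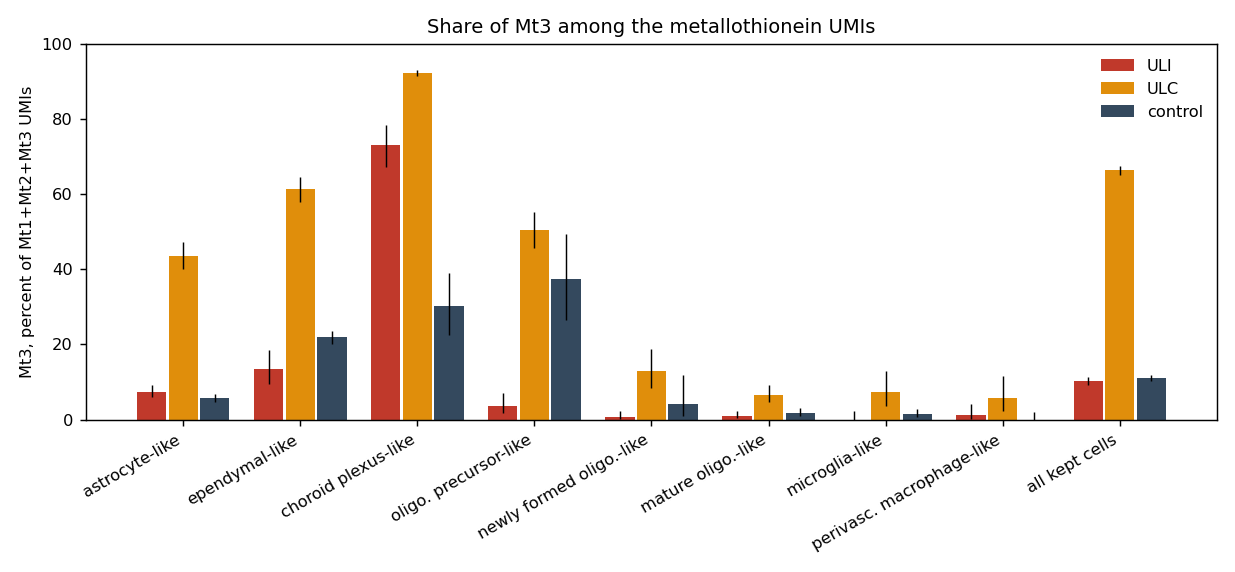
Percent of the summed UMIs of Mt1, Mt2 and Mt3 that were Mt3, by cell class, for ULI, ULC and control, with exact 95% binomial intervals. In astrocyte-like cells the share was 7.45% in ULI, 43.6% in ULC and 5.72% in control, and plexus-like cells of ULC reached 92.3%.

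RNA freed from broken cells can enter any droplet, and ULC had many plexus-like cells, so Mt3 was set against Ttr. Ttr in astrocyte-like cells stood at 389 CPM in ULI, 5217 CPM in ULC and 57.4 CPM in control. In ULC, plexus-like cells held 6.9 UMIs of Mt3 per 1000 of Ttr (6.67 to 7.14). Microglia-like cells held 8.53 (4.09 to 15.7), endothelial-like cells 5.03 (1.04 to 14.7) and perivascular macrophage-like cells 16.7 (6.73 to 34.5). Leptomeningeal fibroblast-like cells held 12.8 (1.55 to 46.3) and pericyte-like cells 0 (up to 31.5). The intervals of all these classes include the plexus-like value. Those of smooth muscle-like cells (22.9, 11 to 42.1) and mature oligodendrocyte-like cells (28.6, 19.7 to 40.2) lay above it. So did that of newly formed oligodendrocyte-like cells (45.5, 28.8 to 68.2). Astrocyte-like cells held 187 (167 to 209), ependymal-like cells 279 (255 to 304), neuron-like cells 155 (117 to 202) and precursor-like cells 100 (87.6 to 114). Barcodes with under 200 genes, which were not kept as cells, held Mt3 at 43.6 CPM in ULI, 224 CPM in ULC and 0 of 179291 UMIs in control, and the part of free RNA in the Mt3 of ULC was not tested. Mt1 in these barcodes stood at 138 CPM in ULI, 110 CPM in ULC and 100 CPM in control. The part of free RNA in the Mt1 of any class was not tested.

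**Figure D4:**
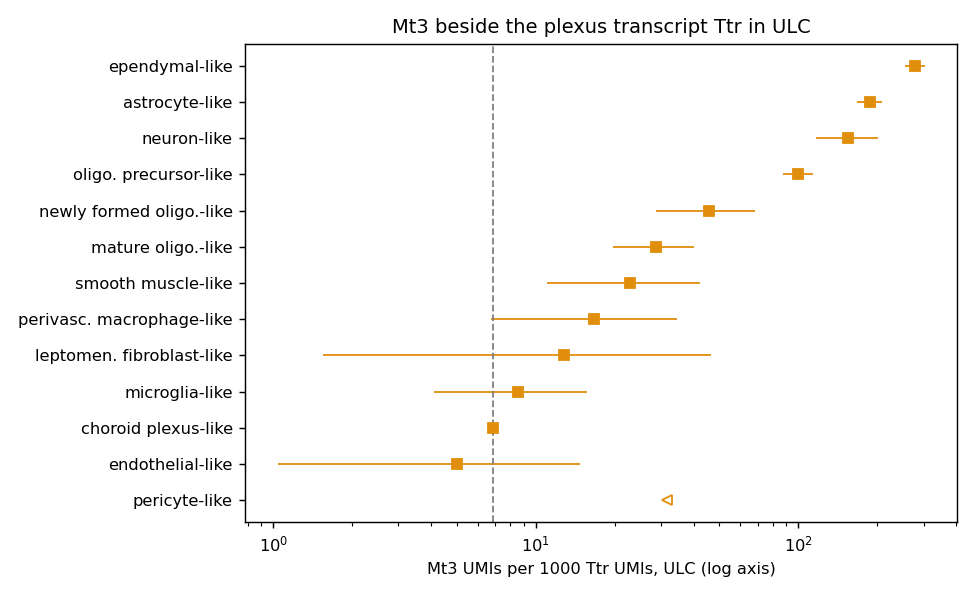
Mt3 UMIs per 1000 Ttr UMIs (log axis) by cell class in ULC, with exact 95% Poisson intervals and a line at the plexus-like value of 6.9. Microglia-like (8.53), endothelial-like (5.03), perivascular macrophage-like (16.7), leptomeningeal fibroblast-like (12.8) and pericyte-like cells (0) had intervals that include the plexus-like value. Those of smooth muscle-like (22.9), mature oligodendrocyte-like (28.6) and newly formed oligodendrocyte-like cells (45.5) lay above it. So did those of precursor-like (100), neuron-like (155), astrocyte-like (187) and ependymal-like cells (279).

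The ULC library also differed from control in genes unrelated to metallothioneins, and the 5 genes with the highest smallest ratio over the same 4 classes are given beside Mt3. They were Gm12892, Gpx4-ps2, Gnb2, Lamp1 and Rpl8. In astrocyte-like cells Gm12892, a processed pseudogene, stood at 6.22 CPM in ULI, 729 CPM in ULC and 11.2 CPM in control. Gpx4-ps2, a transcribed pseudogene of the glutathione peroxidase gene Gpx4, stood at 17.1 CPM in ULI, 222 CPM in ULC and 3.74 CPM in control, and Gpx4 itself at 1.56 CPM in ULI, 34.0 CPM in ULC and 0 UMIs in control. Lamp1, which codes for a lysosomal membrane protein, stood at 31.1 CPM in ULI, 389 CPM in ULC and 96.0 CPM in control. Rpl8, of the large ribosomal subunit, stood at 23.3 CPM in ULI, 232 CPM in ULC and 21.2 CPM in control. Over the 4 classes, the median log2 ratio to control in ULC was 4.90 for Gm12892, 4.78 for Gpx4-ps2, 4.16 for the G protein subunit gene Gnb2, 2.98 for Lamp1 and 3.20 for Rpl8, each above the 2.63 of Mt3.

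Base composition moved with the libraries as well. In the last 300 bases of the transcript, the share of G and C was 60.3% in Mt3, higher than in 99.3% of the genes tested in astrocyte-like cells, 56% in Mt1 and 51% in Mt2, so that all 3 members lay in the highest of 5 bins of genes by this measure. In astrocyte-like cells genes of the highest bin had a median log2 ratio to control of -0.30 in ULI and -0.07 in ULC, and genes of the lowest bin one of 0.10 in ULI and -0.24 in ULC. Less the median of their own bin, Mt1 was at -0.47 in ULI and -0.82 in ULC, and Mt3 was at 2.75 in ULC. In plexus-like cells, where the highest bin had a median of 0.57 in ULC, Mt3 less that median was at 2.12. In precursor-like cells it was at 1.08. In mature oligodendrocyte-like cells Mt1 less the median of its bin was at 2.16 in ULI and 1.93 in ULC, against 1.61 in ULI and 2.48 in ULC without this step. The part of base composition, and of whatever moved the pseudogenes, in the Mt3 ratio was not tested.

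**Figure D5:**
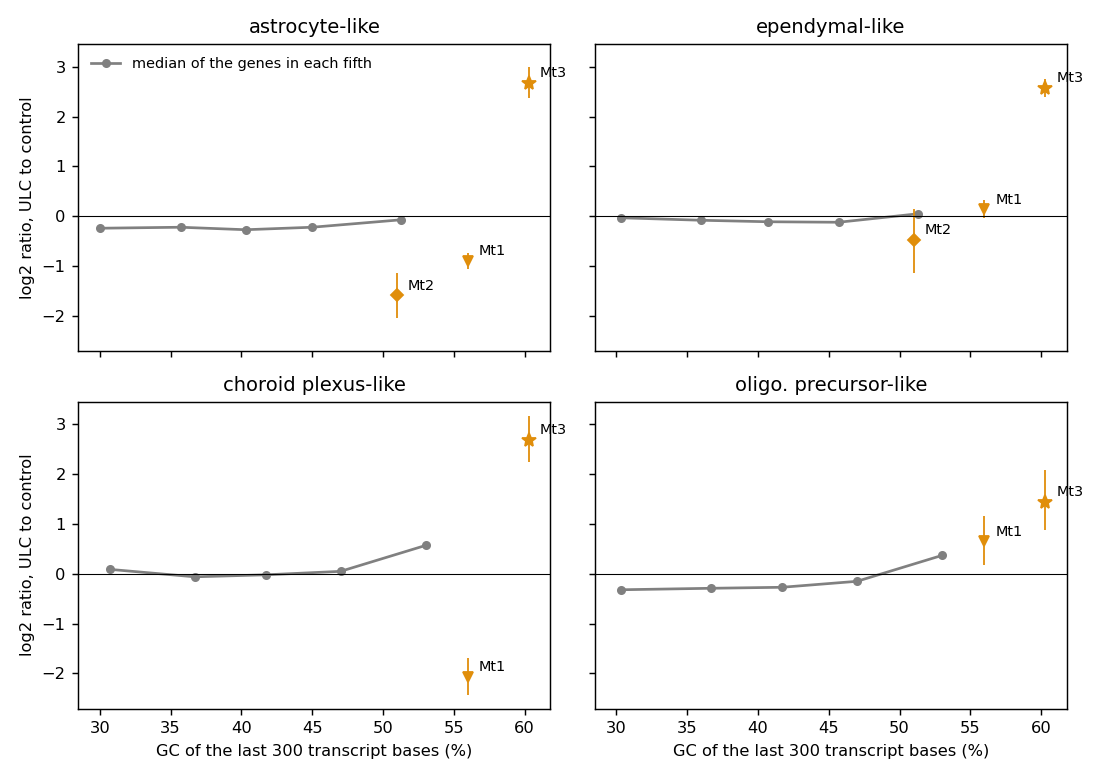
Median log2 ratio of genes in 5 bins of GC content (percent G and C in the last 300 bases of the transcript), for ULC to control in 4 cell classes, with the members drawn as points of their own and exact 95% binomial intervals as bars. In astrocyte-like cells Mt3 lay at 2.68 while the median of its bin was -0.07, and Mt1 lay at -0.89.

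Genes with the profile most like each member were sought over 38 points, each a class in a library, by Pearson correlation of log2(CPM + 10). The points share libraries and depth, so r is given as a description. Mt1 was most like Mlc1 (r = 0.81), Gfap (0.79) and Aqp4 (0.79), then Slc25a18 and Sox1 (0.78 each). Mt2 was most like Sox1 (0.88), the gap junction genes Gjb6 and Gja1 (0.87 each), the water channel gene Aqp4 (0.87) and Mlc1 (0.86). Mt3 was most like Clu (0.94), which codes for clusterin, a secreted chaperone, then Wwc1 (0.91), Oscp1 (0.89), Lgi1 (0.85) and Nwd1 (0.83). Among the members r was 0.81 for Mt1 with Mt2, 0.60 for Mt1 with Mt3 and 0.56 for Mt2 with Mt3.

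Genes that share regulators or functions with the metallothioneins were read in astrocyte-like cells, counting those at least 2-fold apart among genes with at least 50 UMIs. Over all genes of these cells, 4.33% were higher and 7.76% lower for ULI, and 5.12% were higher and 13.1% lower for ULC, and each list below holds too few genes to set its share against these closely. Of 22 genes of zinc import and export and MTF-1, 11 could be read for ULI, of which 1 was higher and 0 lower (median log2 ratio -0.24, against 0.01 over all genes), and 7 for ULC, of which 0 were higher and 1 lower (median -0.05, against -0.20). Slc39a14, a zinc importer, stood at 135 CPM in ULI, 105 CPM in ULC and 53.6 CPM in control. Slc30a1, a zinc exporter that MTF-1 induces together with Mt1 and Mt2, stood at 34.2 CPM in ULI and 67.3 CPM in control, a log2 ratio of -0.98, and Slc39a1 was at 64.9 CPM in ULC and 167 CPM in control. Of 10 genes of copper handling, 4 could be read for ULI with 0 past 2-fold, and 3 for ULC with 1 lower, Cox17, at 18.5 CPM in ULC and 57.4 CPM in control.

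Of 13 genes that glucocorticoids induce, 11 could be read for ULI, of which 4 were higher and 1 lower (median 0.73), and 9 for ULC, of which 3 were higher and 0 lower (median 0.66). Fkbp5, a chaperone of the glucocorticoid receptor, stood at 104 CPM in ULI and 24.9 CPM in control. Errfi1 stood at 138 CPM in ULI, 164 CPM in ULC and 48.6 CPM in control, while Ddit4 stood at 56.0 CPM in ULI, 380 CPM in ULC and 150 CPM in control. Per1 stood at 28.0 CPM in ULI and 39.9 CPM in control. Klf9 stood at 463 CPM in ULC and 551 CPM in control, and Tsc22d3 at 633 CPM in ULC and 565 CPM in control. Mt1 and Mt2, which glucocorticoids also induce, were lower in the same cells, and the part of glucocorticoids in any of these levels was not tested.

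Of 15 genes of the oxidative stress response, 10 could be read in each comparison, and in each 0 were higher and 1 lower: catalase (Cat), at 96.5 CPM in ULI, 102 CPM in ULC and 206 CPM in control. Of 10 genes of reactive astrocytes, 4 could be read for ULI, of which Vim (91.8 CPM in ULI, 24.9 CPM in control) and Cd44 (74.7 CPM in ULI, 8.73 CPM in control) were higher and Serpina3n (23.3 CPM in ULI, 72.3 CPM in control) was lower, and 2 could be read for ULC, of which Gfap was lower. Gfap, the filament protein of reactive astrocytes, stood at 275 CPM in ULI, 120.5 CPM in ULC and 268 CPM in control. Of 15 genes that respond to dissociation of tissue and cell activation, 12 could be read for ULI with 3 higher and 0 lower, and 13 for ULC with 4 higher and 1 lower. Among them, Fos stood at 1472 CPM in ULI, 1134 CPM in ULC and 408 CPM in control. Hspa1b went the other way, at 68.5 CPM in ULI, 55.6 CPM in ULC and 115 CPM in control. The part of tissue handling in the lower Mt1 was not tested.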

How the data were processed

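The deposited values were whole UMI counts per gene and barcode in 1 table of 28676 genes and 14876 barcodes, which the authors made, per the submitters' processing notes, with CASAVA 1.8, UMI-tools, Seurat and mm10. For the aligner, the annotation and the calling of cells the entry is not given in the sources used here, and the study's text, the series record and the sample records name different capture platforms. The table held 17428194 UMIs in ULI, 12768983 in ULC and 27019650 in control.

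Cells with at least 200 genes were kept (912 barcodes were left out), scaled to 10000 counts and clustered with scanpy 1.11.5 and leidenalg 0.10.2 (2000 variable genes without Mt1, Mt2 and Mt3, 30 components, 20 neighbours, resolution 1.0) into 26 clusters, named from marker lists. Doublets were kept, and leaving out the 5% of cells with the highest Scrublet scores was an alternative. Within each class and library the UMIs were summed, and classes with at least 20 cells in both libraries were compared. With 1 library per group no test was run and cells were not used as replicates. A count of 0 was set to a floor of 3 counts. The background of 2-fold differences was taken over genes whose UMIs in both libraries came to 50 or more. A gene could reach 50 through only the library where it was high, which ties its call past 2-fold to this filter. Against control, this held for Mt1 in precursor-like (ULI), endothelial-like (ULI) and smooth muscle-like cells (ULI and ULC). It held for Mt2 in ependymal-like (ULI), mature oligodendrocyte-like (ULI) and astrocyte-like cells (ULC). It held for Mt3 in ependymal-like (ULI), plexus-like (ULC) and precursor-like cells (ULC), and for ULI to ULC in neuron-like cells. Scaling factors of edgeR 4.0.16 and DESeq2 1.42.0 were tried without their tests. On simulated counts of astrocyte-like cells (ULC to control), 100 genes set at 2 on the log2 scale gave a median of 1.95. Of their intervals, 94% held the simulated ratio, which is the set value after rescaling to the new total. The 82 genes set at -2 that kept at least 50 UMIs gave -2.16, and 0.956% of 3138 unchanged genes passed 2-fold. The counts were drawn with counting error only and hold no variation between cells, mice or libraries.

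Named beside the members were the 5 genes most alike to each and the 5 with the highest smallest ULC ratio to control. From each list of other genes, those named are among its 2 highest and 2 lowest in astrocyte-like cells. Members and lists were chosen with earlier results of these data known. Coordinates and sequences are from GENCODE M21 on mm10.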

Additional observations from a re-analysis of the deposited data

Results flagged for a closer look

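Mt1 moved in opposite directions in 2 glial classes of the same libraries. Its log2 ratio to control was -0.77 in ULI and -0.89 in ULC in astrocyte-like cells, and 1.61 in ULI and 2.48 in ULC in mature oligodendrocyte-like cells. The mature cells of the libraries lay mainly in different clusters, at median depths of 843 UMIs in ULI, 754 in ULC and 4136 in control. In cluster 11, which held 327 of the 501 Mt1 UMIs of the mature cells of ULI, the ratio of ULI to control was -0.21 (-0.46 to 0.04). With 1 library per group, the difference between the classes was not tested.

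Mt3 also appeared in barcodes of under 200 genes, which enter no comparison. Its level there was 43.64 CPM in ULI (6 UMIs) and 223.9 CPM in ULC (59 UMIs), against 0 UMIs in control, where the upper limit was 20.6 CPM. Ttr in the same barcodes stood at 5579 CPM in ULI, 14858 CPM in ULC and 72.5 CPM in control.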

How the results depend on the processing

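Of 640 alternative values of 50 log2 ratios, 575 stayed within the counting interval of the reported value, and 65 moved outside it. Of the 640, 15 changed sign: 5 of ratios whose reported interval excluded 0, given below, of which 0 were ratios of Mt3, and 10 of ratios whose interval held 0, of which 3 were the Mt3 ratio of ULI to control in plexus-like cells (reported -0.10, up to 0.38). No paired analysis was possible because each group is 1 library. With 1 library per group the variation between mice is unknown, and levels under about 50 UMIs, most of those of Mt2 and Mt3 outside astrocyte-like, ependymal-like and plexus-like cells, rest on few molecules. Causes of the changes below were not tested.

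In astrocyte-like cells of at most 20% mitochondrial UMIs, the log2 ratio of Mt1 was -0.46 for ULI to control and 0.48 for ULI to ULC, and that of Mt2 was -2.10 for ULC to control and 1.59 for ULI to ULC, which was also the median of Mt2 over classes. The Mt1 ratio of ULC to control was -0.67 with TMM factors, -0.68 with median-of-ratios factors and -0.72 with totals without mitochondrial, ribosomal, plexus and haemoglobin genes. Its ratio of ULI to ULC was -0.11 with TMM and -0.10 with median-of-ratios factors, so the sign of this small difference depends on the scaling. With each cell weighing the same, Mt2 was at -0.48 for ULI to control, Mt3 in plexus-like cells at 3.44 for ULC to control, the Mt3 share of the 3 members in ULC astrocyte-like cells at 39.7%, and Mt2 in mature oligodendrocyte-like cells changed sign to -0.59 for ULI to ULC. That Mt3 share was 48.2% in cells with at least 500 genes. Without the top cell, the Mt3 ratio of ULC to control was 2.81 in ependymal-like and 3.53 in plexus-like cells, and the median over classes of ULI to ULC was -4.00.

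Subtracting the median of genes of like GC content was added after seeing the data. It gave astrocyte-like ratios of -0.47 for both Mt1 and Mt2 (ULI to control) and 0.32 for Mt1 (ULI to ULC), and 2.12 for Mt3 in plexus-like cells (ULC to control). Mt1 changed sign to 0.04 in microglia-like cells for ULI to control, and for ULI to ULC to 0.42 in plexus-like, 0.05 in mature oligodendrocyte-like and 0.12 in microglia-like cells. Thinning to 500 UMIs gave shares of astrocyte-like cells of 27% in ULI, 30% in ULC and 50.3% in control for Mt1, 8.48% in ULI, 6% in ULC and 15.6% in control for Mt2, and 5.15% in ULI, 30% in ULC and 3.64% in control for Mt3.

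The background depended on the filter. With at least 20 UMIs, 7.05% of genes were past 2-fold higher for ULI to control and 9.52% for ULC to control, and 10.8% lower for ULI to ULC. Among all genes with a UMI in each library, 12.9% were higher and 16% lower for ULI to control, 20.8% higher for ULC to control, and 16.8% higher and 18.9% lower for ULI to ULC.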

Other observations

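The share of single cells with 2 members at once differed between classes and libraries. Among ULC astrocyte-like cells thinned to 500 UMIs, 30% had Mt1, 30% had Mt3 and 11% had both, against 1.99% with both in control, where 50.3% had Mt1 and 3.64% had Mt3. In ULC ependymal-like cells 48.1% had Mt1, 59.3% had Mt3 and 33.3% had both. The correlations between members over cells of these classes were weak, from -0.12 to 0.39, and are no finding in counts this sparse. The 10% of cells with the most Mt1 held 50.8% of its UMIs in ULI astrocyte-like cells, 43.3% in ULC and 44.2% in control.

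A cluster of 35 neuron-like cells led by Calb1 and Car8 was found in ULI and in neither other library. It held 0 UMIs of each member, which allows up to 50.7 CPM by the exact interval.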
